A study of Homo sapiens with 11 samples.

Results

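The regions described here are the peaks on chromosomes 16, 19 and 22 in 8 peak lists from Ishikawa, a cell line from a human endometrial adenocarcinoma. They were chosen by chromosome number alone, and they make up 9695 of the 90458 peaks in the lists. The chromosomes themselves were selected on earlier results of these same lists, in which chromosome 19 held a smaller share of the H3K27ac peaks with dexamethasone than with vehicle. Every value that sets dexamethasone against vehicle is therefore a description and carries no test. All comparisons are with the other 19 autosomes, which hold 78878 peaks.

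H3K27ac is histone H3 acetylated at lysine 27, a mark that sits on the nucleosomes of active promoters and active enhancers. The estrogen receptor (ER) and the glucocorticoid receptor (GR) are transcription factors that bind DNA once their hormone is present and recruit enzymes that acetylate histones at the sites they occupy. Human chromosomes differ widely in how closely genes are packed, and gene-dense chromosomes are also rich in G and C bases, CpG islands and housekeeping promoters.

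The cells were grown in hormone-depleted medium for at least 4 days and received 100 nM dexamethasone (a synthetic GR ligand), 10 nM 17-beta-estradiol (the ER ligand), both together (called the combination), or DMSO as vehicle. Chromatin immunoprecipitation with sequencing was done for H3K27ac at 8 h with dexamethasone, estradiol, the combination and vehicle, for ER at 1 h with the combination and estradiol, and for GR at 1 h with the combination and dexamethasone. The times follow the treatment label of each sample, since the shared protocol text gives 1 h for all. Vehicle ER, vehicle GR and the control sample were not analysed here. Each group is 1 library, so there is no replicate spread and no test between treatments. The 95% intervals below are over peaks and cover counting error only, and neighbouring peaks are not independent.

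The H3K27ac libraries held 9034395 usable tags with dexamethasone, 10852521 with estradiol, 9657258 with the combination and 18508574 with vehicle. The dexamethasone H3K27ac library stood apart in its duplicate tags, at 33%, against 19% with estradiol, 22% with the combination and 18% with vehicle. It also had the shortest H3K27ac fragment length estimated by the peak caller, at 232 bp, against 273, 280 and 244 bp in the same order. Whether depth, duplicates or fragment length take part in any result that uses this list was not tested.

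The description of these chromosomes as gene-dense held for 19 and 22 and less so for 16. Taking protein-coding genes from a RefSeq gene table (GRCh38.p14) over the length of chromosome that the deposited H3K27ac peaks span, chromosome 19 came first of the 22 autosomes with 24.7 genes per Mb. Chromosome 22 was in place 3 with 13.5 genes per Mb, and chromosome 16 was in place 5 with 9.49, behind chromosomes 17 (14.4) and 11 (9.71) as well. By vehicle H3K27ac peaks per Mb, chromosome 19 was in place 1 (21.0), chromosome 22 in place 2 (15.1) and chromosome 16 in place 7 (8.62). In RefSeq promoter sequences, reaching from 250 bases before to 50 bases after a gene start, chromosomes 16, 22 and 19 had the 3 highest median GC contents, at 63.3%, 63.0% and 62.7%. Over their 3878 promoters together the median was 63.0%, against 57.7% over 29847 promoters of the other autosomes in that table.

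Chromosomes 16, 19 and 22 held a smaller share of the dexamethasone H3K27ac list than of any other H3K27ac list. They held 1222 of 14911 autosomal peaks with dexamethasone (8.20%, 95% interval 7.76 to 8.65). With estradiol they held 2962 of 23320 (12.7%, 12.3 to 13.1), and with the combination 2251 of 20420 (11.0%, 10.6 to 11.5). With vehicle they held 2516 of 20655 (12.2%, 11.7 to 12.6). The estradiol and vehicle intervals overlap. The low share with dexamethasone was part of the choice of these chromosomes, so its distance from the other H3K27ac lists is a description and no test.

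Each of the chromosomes took part. Chromosome 16 had 334 H3K27ac peaks with dexamethasone, 964 with estradiol, 724 with the combination and 776 with vehicle. Chromosome 19 had 620, 1419, 1082 and 1237 peaks in the same order, and chromosome 22 had 268, 579, 445 and 503. For every 100 vehicle peaks, the dexamethasone list held 43.0 on chromosome 16, 50.1 on chromosome 19 and 53.3 on chromosome 22. Among the 22 autosomes these were the lowest counts, ahead of chromosome 15 with 58.9 and chromosome 17 with 60.1, and chromosome 4 had the highest, 94.4. Set against the vehicle share, the share of chromosomes 16, 19 and 22 together was 0.673 times as large with dexamethasone, 1.04 times with estradiol and 0.905 times with the combination.

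The receptor lists held smaller shares on these chromosomes than the H3K27ac lists of estradiol, the combination and vehicle did, although the interval of the estradiol ER list overlaps that of the combination H3K27ac list. ER had 184 sites there with the combination (7.81%, 6.76 to 8.97) and 346 with estradiol (9.82%, 8.86 to 10.9). GR had 101 sites with the combination (6.30%, 5.16 to 7.60) and 113 with dexamethasone (6.33%, 5.24 to 7.56). The 2 intervals of each receptor overlap.

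**Figure D1:**
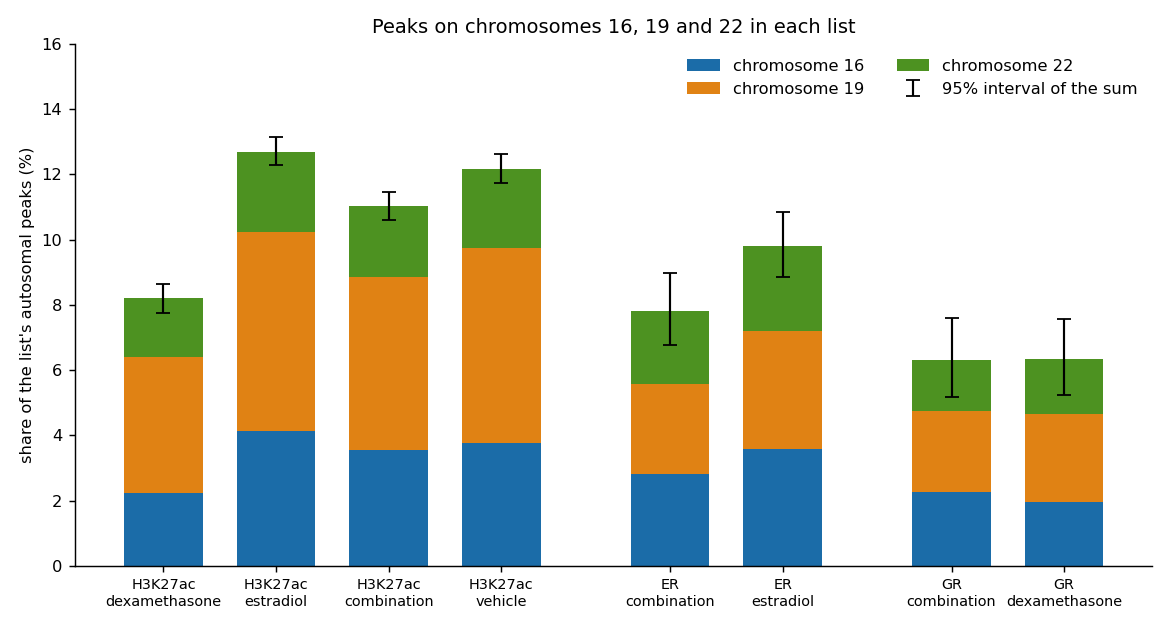
Share of each list's autosomal peaks on chromosomes 16, 19 and 22, in percent, with 1 stacked bar per list and a black bar for the 95% exact interval of the sum. The dexamethasone H3K27ac bar reaches 8.20%, against 12.7% with estradiol, 11.0% with the combination and 12.2% with vehicle.

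Where in the order of strength these peaks lay also differed between lists. The peaks of each list were sorted by pileup, the authors' fragment coverage at the summit, into 10 classes of about equal size, from 1 (weakest) to 10 (strongest). In the dexamethasone list, chromosomes 16, 19 and 22 held 4.15% of class 1, 10.0% of class 5 and 4.89% of class 10. In the estradiol list they held 10.7%, 12.7% and 11.9% of the same classes, in the combination list 6.93%, 11.6% and 8.69%, and in the vehicle list 10.1%, 13.4% and 10.8%. The share was thus lowest at both ends of the dexamethasone list, whereas along the vehicle list it stayed between 10.1% and 14.7%.

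Vehicle peaks of chromosomes 16, 19 and 22 were found with dexamethasone less often than vehicle peaks of the same strength elsewhere. Of their 2516 vehicle peaks, 866 overlapped a dexamethasone peak by at least 1 bp (34.4%, 32.6 to 36.3), where 46.7% of vehicle peaks on all chromosomes did. Among the other autosomes, weighted to the same pileup classes ("at equal rank" below), the share was 48.3%. The difference was -13.9 percentage points (-15.9 to -11.9, counting error only). Since this contrast chose the chromosomes, the difference is their description. The other 1650 vehicle peaks (65.6%) had no dexamethasone peak over them.

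The gap was widest among weak peaks. In class 1, 34 of 218 vehicle peaks of chromosomes 16, 19 and 22 were found with dexamethasone (15.6%), against 41.5% on the other autosomes. In class 5 the shares were 19.2% and 35.2%, in class 8 they were 45.3% and 56.7%, and in class 10 they were 88.3% and 92.9%. Over the weaker 5 classes the difference was -18.5 points, and over the stronger 5 it was -9.87 points. On chromosomes 16, 19 and 22 the share found stayed between 15.6% and 19.2% through classes 1 to 5, whereas on the other autosomes it was higher in class 1 than in classes 3 to 5.

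**Figure D2:**
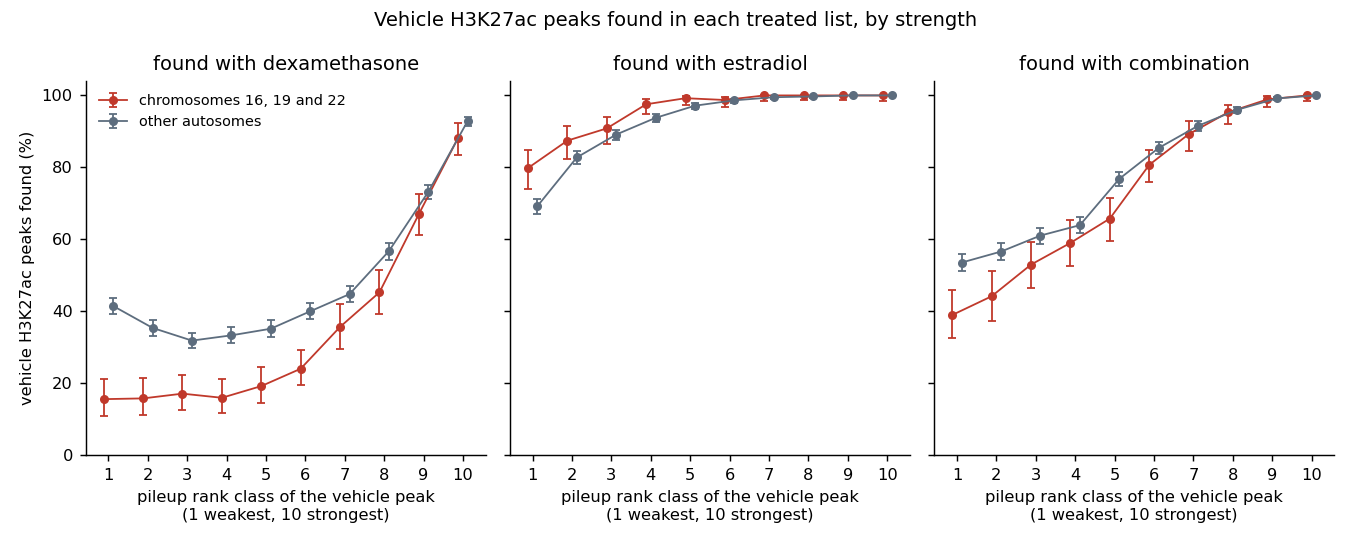
Share of vehicle H3K27ac peaks (y axis, percent) that overlapped a peak with dexamethasone, estradiol or the combination, by pileup rank class of the vehicle peak (x axis), with 95% exact intervals. With dexamethasone the points of chromosomes 16, 19 and 22 lie below the other autosomes in every class, 15.6% against 41.5% in class 1 and 88.3% against 92.9% in class 10.

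All 3 chromosomes lay near the low end of the autosomes. On chromosome 16, 244 of 776 vehicle peaks were found with dexamethasone (31.4%), -15.9 points against other autosomes at equal rank. On chromosome 19, 437 of 1237 were found (35.3%, -13.9 points), and on chromosome 22, 185 of 503 (36.8%, -11.0 points). Chromosomes 16 and 19 were in places 1 and 2 from the lowest of the 22 autosomes, and chromosome 22 in place 4, behind chromosome 17 (39.6%, -11.1 points). Chromosomes 20 (-6.70 points) and 15 (-6.62 points) came next. At the other end lay chromosome 18 (9.01 points above the rest) and chromosome 4 (12.4 points above). Chromosome 22 cannot be told apart from chromosome 17, since their intervals, -15.3 to -6.75 and -14.0 to -8.21 points, overlap almost wholly.

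**Figure D3:**
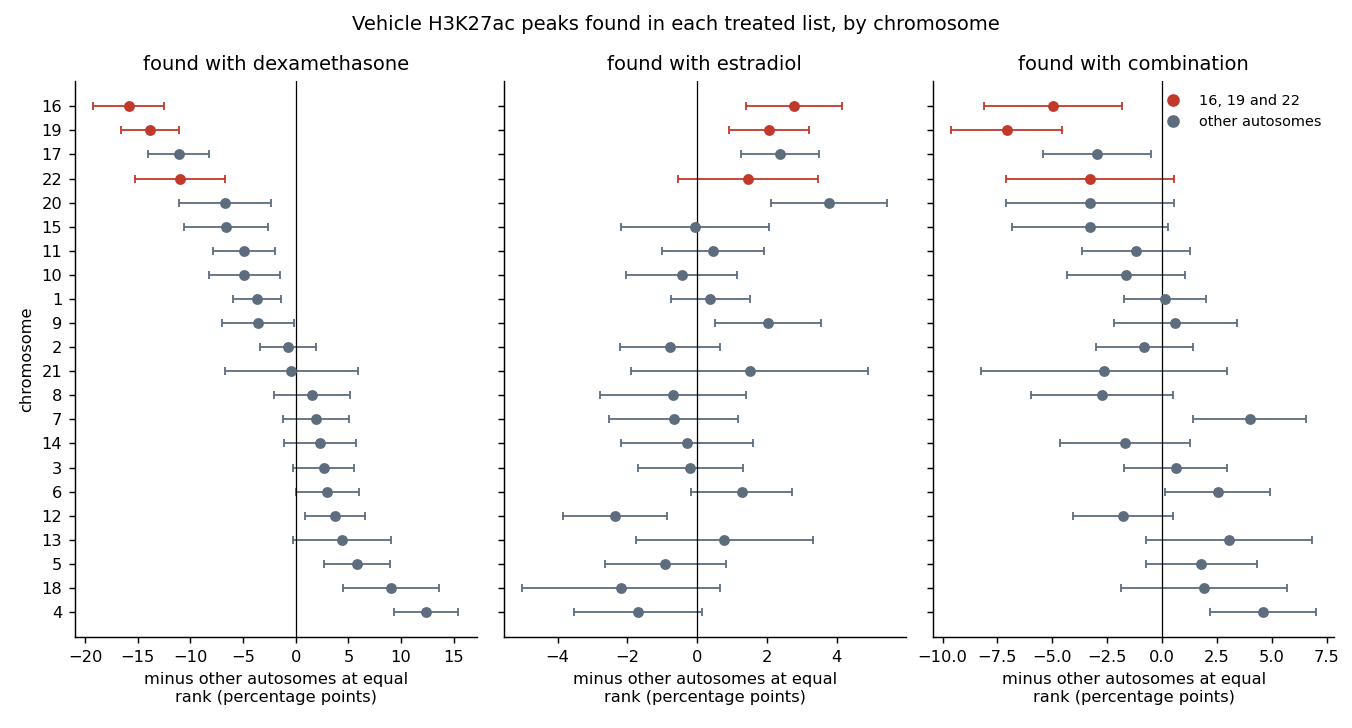
Share of vehicle H3K27ac peaks found with each treatment, by chromosome (y axis), minus the share on the other autosomes at equal rank (x axis, percentage points), with 95% intervals. Chromosomes 16, 19 and 22 stand at -15.9, -13.9 and -11.0 points with dexamethasone, at 2.77, 2.06 and 1.45 points with estradiol, and at -4.97, -7.09 and -3.29 points with the combination.

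The low share was seen along most of each chromosome. The windows below divide the contrast that chose the chromosomes, so they describe where it lay and add no support to it. Of 32 windows of 5 Mb with at least 20 vehicle peaks, 29 were below the other autosomes at equal rank with dexamethasone, with a median of -13.1 points. On the other autosomes, 180 of 358 such windows (50.3%) were below, with a median of -0.15 points. The lowest window was the last of chromosome 22, from 50000001 (hg19), where 6 of 40 vehicle peaks were found (15.0%, -29.9 points). The first 5 Mb of chromosome 16 held 185 vehicle peaks, of which 41 were found (22.2%, -25.9 points). The exceptions were chromosome 19 from 25000001 to 30000000, where 19 of 25 were found (76.0%, 24.0 points above), chromosome 16 from 75000001 to 80000000 (27 of 49, 10.2 points above) and chromosome 22 from 25000001 to 30000000 (27 of 49, 4.87 points above).

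A comparison chosen after seeing the data matched crowding of peaks as well as rank. Vehicle peaks of chromosomes 16, 19 and 22 had a median of 26 other vehicle peaks within 500 kb, against 14 on the other autosomes. Matched on rank and on this number in 5 classes, the other autosomes had 49.3% of vehicle peaks found with dexamethasone, and the difference was -14.9 points (-16.9 to -12.8). The vehicle peaks with the fewest neighbours, 0 to 6, showed the smallest gap, 34.1% of 126 against 41.8% at equal rank. Those with 7 to 12 neighbours showed the widest, 25.7% of 253 against 43.9%. Whether crowding takes part in the low share was not tested.

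The strongest vehicle peaks that had no dexamethasone peak over them each had a peak with estradiol and another with the combination, and their pileups are given on each list's own scale. In classes 9 and 10, all vehicle peaks were found with estradiol and at least 98.9% with the combination, inside and outside these chromosomes. On chromosome 16, the peak from 1359026 to 1359481 had a pileup of 154 with estradiol, 68 with the combination and 144.5 with vehicle, and the peak from 87984197 to 87984999 had 134, 54 and 118. On chromosome 19, the peak from 42772540 to 42772960 had a pileup of 177 with estradiol, 89 with the combination and 141.5 with vehicle, and the peak from 50379014 to 50379987 had 168, 79 and 137.7. On chromosome 22, the peak from 39915224 to 39917377 had a pileup of 138 with estradiol, 66 with the combination and 108.2 with vehicle, and the peak from 51020538 to 51021339 had 122, 50 and 99.9. These 6 peaks overlapped no ER or GR site in the 4 receptor lists. Such sites were rare at all regions absent with dexamethasone and present with vehicle. Depending on the receptor list, a site lay within 1000 bp of 0.626% to 3.41% of them on these chromosomes and 0.634% to 3.50% elsewhere.

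Vehicle peaks that were found with dexamethasone were narrower there. Where a vehicle peak of chromosomes 16, 19 and 22 was found, dexamethasone peaks covered a median of 61.0% of its width, against 76.6% on the other autosomes at equal rank. Of all bases in vehicle peaks, dexamethasone peaks covered 33.8% on chromosomes 16, 19 and 22 and 51.6% elsewhere. Estradiol peaks covered 95% and 92.9% of these bases, and combination peaks covered 74.8% and 80.9%.

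Read from the dexamethasone list, nearly every peak on these chromosomes was already a vehicle peak. Of the 1222 dexamethasone peaks, 1125 overlapped a vehicle peak (92.1%, 90.4 to 93.5), where 75.2% of the whole list did. The other autosomes at equal rank had 75.6%, a difference of 16.4 points (14.8 to 18.1). In the weaker 5 classes the shares were 86.1% and 59.5%. Chromosomes 22, 19 and 16 had the 3 highest differences of the 22 autosomes.

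Estradiol gave a small difference in the other direction. Of the 2516 vehicle peaks, 2410 were found with estradiol (95.8%, 94.9 to 96.5), where 93.1% of all vehicle peaks were. The other autosomes at equal rank had 93.6%, and the difference was 2.16 points (1.31 to 3.0). It lay in the weaker peaks: in class 1, 79.8% were found against 69.2% elsewhere. From class 7 upward every vehicle peak was found, as were at least 99.5% in each class elsewhere. Chromosomes 16 and 19 stood above the others by 2.77 and 2.06 points, and the interval of chromosome 22 reached below 0 (1.45 points, -0.546 to 3.45). Chromosome 20 was the highest of the autosomes (3.78 points), and chromosomes 17 (2.38) and 9 (2.02) lay close to chromosome 19. Only 3 of the 32 windows of 5 Mb were below the other autosomes, against 159 of 358 elsewhere.

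Estradiol peaks of these chromosomes were found in the vehicle list about as often as the whole list, and slightly less often than peaks of equal rank elsewhere. Of 2962 estradiol peaks, 2144 were vehicle peaks (72.4%, 70.7 to 74.0), where 73.1% of the whole list were. The other autosomes had 73.35% without matching and 75.1% at equal rank, and the matched difference was -2.71 points (-4.39 to -1.02). It was not particular to these chromosomes. Chromosomes 17 (-5.01 points), 21 (-4.03) and 10 (-3.98) lay below chromosome 16 (-3.78). The intervals of chromosomes 19 (-3.94 to 0.685) and 22 (-7.28 to 0.182) include 0.

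The combination lay between the single hormones. Of the 2516 vehicle peaks, 1853 were found with the combination (73.6%, 71.9 to 75.4), where 77.5% of all vehicle peaks were. The other autosomes at equal rank had 79.3%, and the difference was -5.68 points (-7.48 to -3.87). In the weaker 5 classes the difference was -10.1 points and in the stronger 5 it was -1.75 points. In class 10 all 222 were found, as were all elsewhere. Chromosomes 19 and 16 were the 2 lowest autosomes (-7.09 and -4.97 points), and chromosome 22 was in place 4 (-3.29 points, -7.13 to 0.547). Of the 32 windows of 5 Mb, 24 were below the other autosomes, including all 11 of chromosome 19.

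Of the 2251 combination peaks, 1874 were vehicle peaks (83.3%, 81.6 to 84.8), where 76.8% of the whole list were. The other autosomes at equal rank had 78.5%, a difference of 4.75 points (3.12 to 6.39). The comparisons of dexamethasone, estradiol and the combination all use the same vehicle list, so their values are not independent of each other.

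Overlapping H3K27ac peaks of the 4 lists were merged into regions, 3093 on chromosomes 16, 19 and 22 and 23353 on the other autosomes. A region with a peak under a treatment and none with vehicle counts as gained, and one with a vehicle peak and none under the treatment counts as lost. The words refer to peak calls and say nothing of the level of acetylation.

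With dexamethasone, 71 regions of chromosomes 16, 19 and 22 were gained (2.30%, 1.80 to 2.89), where 10.8% of all regions were, and 2806 regions of the other autosomes (12.0%). A further 1438 were lost (46.5%, 44.7 to 48.3), where 35.3% of all regions were, and 7891 of the other autosomes (33.8%). That is 20.2 regions lost for each gained on chromosomes 16, 19 and 22 and 2.81 on the other autosomes. The gained regions numbered 23 on chromosome 16, 35 on chromosome 19 and 13 on chromosome 22.

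With estradiol, 796 regions were gained (25.7%, 24.2 to 27.3), where 21.8% of all regions and 21.2% of those on the other autosomes were. The lost regions numbered 101 (3.27%, 2.67 to 3.95), where 4.60% of all regions and 4.74% elsewhere were. Chromosome 16 had the highest share gained of the 3, 28.5%, with 27.1% on chromosome 22 and 23.3% on chromosome 19. With the dexamethasone list left out of the merging, 797 of 3066 regions were gained with estradiol (26.0%) and 22.4% elsewhere.

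With the combination, 301 regions were gained (9.73%, 8.71 to 10.8), where 14.9% of all regions and 15.6% elsewhere were. The lost regions numbered 585 (18.9%, 17.5 to 20.3), where 15.1% of all regions and 14.5% elsewhere were. Lost regions were thus more numerous than gained ones on chromosomes 16, 19 and 22, at 1.94 for each, and slightly fewer on the other autosomes, at 0.932. Without the dexamethasone list in the merging, 304 of 3066 were gained with the combination (9.92%) and 17.2% elsewhere.

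Following each region through the 4 lists shows where the difference lay. On chromosomes 16, 19 and 22, 864 regions were present with estradiol, the combination and vehicle and absent only with dexamethasone (27.9%, 26.4 to 29.6), against 20.1% on the other autosomes. A further 487 were present with estradiol and vehicle only (15.7%, against 10.6%), and 567 with estradiol only (18.3%, against 13.7%). Regions present in all 4 lists numbered 723 (23.4%, 21.9 to 24.9, against 28.4%). Regions seen with dexamethasone only numbered 35 (1.13%, against 5.96%), and those seen with dexamethasone and the combination only numbered 22 (0.711%, against 3.70%).

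**Figure D4:**
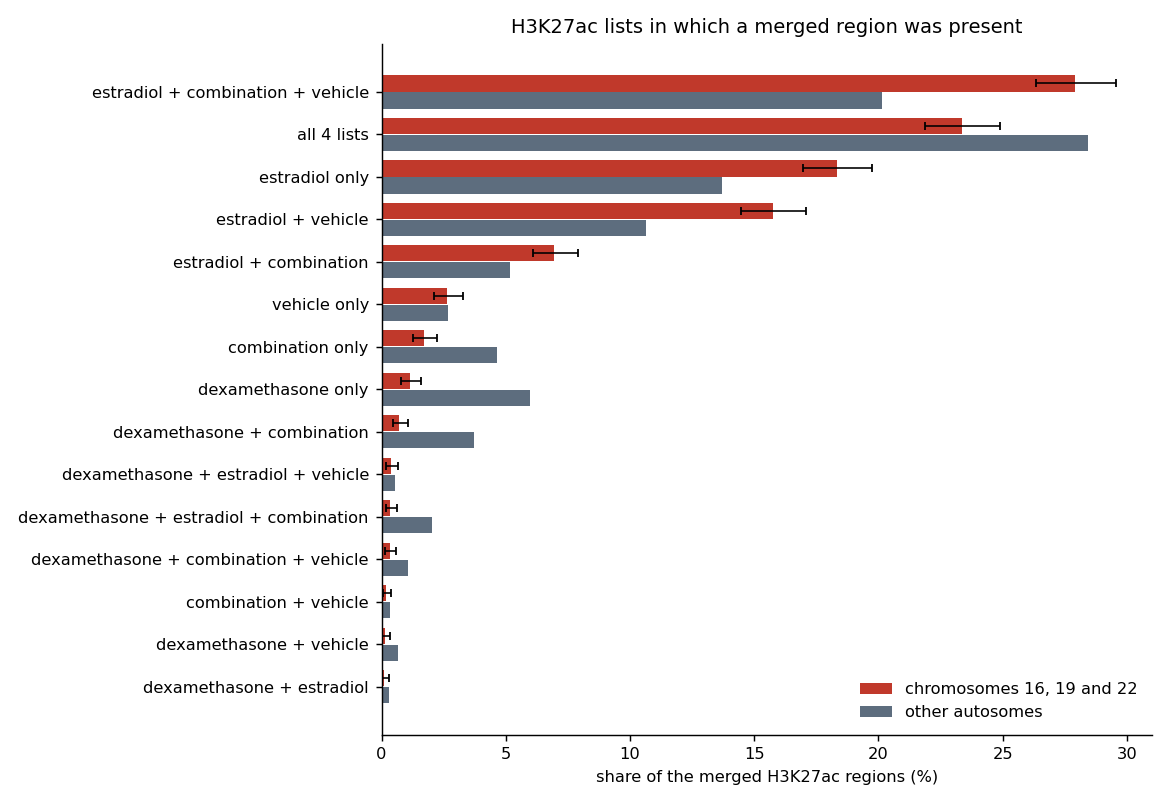
Share of merged H3K27ac regions (x axis, percent) by the lists in which they were present (y axis), for 3093 regions of chromosomes 16, 19 and 22 and 23353 of the other autosomes, with 95% exact intervals on the first. The bars of chromosomes 16, 19 and 22 are longer for regions absent with dexamethasone, such as 27.9% against 20.1% at the top, and shorter for regions seen with dexamethasone only, 1.13% against 5.96%.

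Most regions lost with dexamethasone had a peak with the combination, in shares that differed by less than their intervals inside and outside these chromosomes. Of the 1438 regions lost, 869 were present with the combination (60.4%, 57.9 to 63.0), against 60.6% (59.5 to 61.7) of the 7891 lost elsewhere. With estradiol, 1351 were present (93.9%, 92.6 to 95.1), against 91.0% (90.4 to 91.7).

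The 723 regions present in all 4 lists also ranked lower in the dexamethasone list. Among the 7361 autosomal regions present in all 4, ordered by pileup within each list, those of chromosomes 16, 19 and 22 had a median percentile of 40.8 with dexamethasone, 57.6 with estradiol, 50.8 with the combination and 55.4 with vehicle. On the other autosomes the medians were 51.6, 48.7, 49.5 and 49.1 in the same order. Of the 723, 496 (68.6%) ranked lower with dexamethasone than with vehicle, against 48.4% of regions elsewhere. The same was true of 478 (66.1%) with the combination, against 54.0%, and of 348 (48.1%) with estradiol, against 50.7%. In these regions the dexamethasone peaks spanned a median of 566 bp, against 799.5 bp on the other autosomes, while the vehicle peaks spanned 1130 and 1136 bp.

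The widest region present in all 4 lists on chromosome 22 ran from 46467184 to 46483905. It held 9 peaks spanning 12332 bp with dexamethasone, 2 peaks spanning 16566 bp with estradiol, 1 peak of 15874 bp with the combination and 2 peaks spanning 16508 bp with vehicle. On chromosome 19 the widest ran from 4368064 to 4381642, with 13 peaks spanning 8080 bp with dexamethasone, 1 of 13568 bp with estradiol, 2 spanning 13176 bp with the combination and 4 spanning 13075 bp with vehicle. On chromosome 16 it ran from 57652488 to 57663419, with 3 peaks spanning 6451 bp with dexamethasone, 1 of 10932 bp with estradiol, 1 of 10422 bp with the combination and 3 spanning 9504 bp with vehicle. The dexamethasone list covered the fewest bases of each of these regions.

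Gained regions with the highest pileup differed in their receptor sites. With dexamethasone, the strongest gained region of chromosome 19, from 18127500 to 18128546, had a pileup of 49 with dexamethasone and 55 with the combination. It held a GR site with the combination (pileup 25) and with dexamethasone (46.9), and an ER site with the combination (23.7). The strongest on chromosome 22, from 31527108 to 31527829 (39 with dexamethasone and 22 with the combination), and on chromosome 16, from 4345466 to 4345830 (28, with dexamethasone only), held no receptor site.

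With estradiol, the strongest gained region of chromosome 16 ran from 9140550 to 9142672, with a pileup of 155 with estradiol and 80 with the combination. It held an ER site in both ER lists, with a pileup of 70.7 with the combination and 65.4 with estradiol, and a GR site with the combination only (20). On chromosome 22, the region from 45891091 to 45895229 was the strongest gained one both with estradiol (pileup 132) and with the combination (72), and ER was called there in both lists (90.8 with the combination, 69.9 with estradiol), and GR with the combination only (49). On chromosome 19, the region from 739632 to 741409 (105 with estradiol, 69 with the combination) held ER sites with pileups of 69.8 with the combination and 65.8 with estradiol, and no GR site.

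With the combination, the strongest gained region of chromosome 19, from 1246201 to 1247010, had a pileup of 32 with dexamethasone and 79 with the combination and no estradiol peak. It held GR sites with the combination (29) and with dexamethasone (50.5) and an ER site with the combination only (29.2). On chromosome 16, the region from 27253366 to 27256149 (103 with estradiol, 101 with the combination) held ER sites in both lists, and GR bound there with the combination only (25). A region gained with the combination could thus hold a peak with estradiol alone or with dexamethasone alone.

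Counted over all gained regions, a GR site of the dexamethasone list lay within 1000 bp of 16 of the 71 regions gained with dexamethasone on chromosomes 16, 19 and 22 (22.5%, 13.5 to 34.0), where 11.1% of all such autosomal regions had one, and 303 of 2806 on the other autosomes (10.8%, 9.67 to 12.0). An ER site of the estradiol list lay within 1000 bp of 106 of the 796 regions gained with estradiol (13.3%, 11.0 to 15.9), where 14.9% of all such autosomal regions had one, and 15.2% elsewhere. For the 301 regions gained with the combination, an ER site of the estradiol list lay within 1000 bp of 84 (27.9%, 22.9 to 33.3), where 19.1% of all such autosomal regions had one, and 669 of 3634 elsewhere (18.4%, 17.2 to 19.7). An ER site of the combination list lay near 61 of the 301 (20.3%, 15.9 to 25.3), where 17.1% of all such autosomal regions had one, and 16.8% (15.6 to 18.0) elsewhere. The shares for GR near dexamethasone gains and for estradiol ER near combination gains thus lay above the other autosomes, with intervals that do not overlap, while the intervals of the other 2 shares include the share elsewhere. The regions gained with the combination differ in make-up. Those present with estradiol and the combination only were 215 of the 301 here and 1205 of the 3634 elsewhere. The shares are matched neither for this nor for strength. Over the 12 pairs of a treatment and a receptor list, the interval lay above the share elsewhere in 4 and below it in 1. Near dexamethasone gains, the pairs above also included combination ER sites (11.3%, 4.99 to 21.0, against 4.85%). Combination GR sites near these gains lay above as well (18.3%, 10.1 to 29.3, against 9.05%). The pair below was combination ER sites near estradiol gains (9.55%, 7.60 to 11.8, against 12.1%).

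H3K27ac peaks of chromosomes 16, 19 and 22 were narrower than peaks of equal rank elsewhere in every H3K27ac list. Their median width was 414 bp with dexamethasone (401 to 433), against 484 bp on the other autosomes at equal rank, a ratio of 0.855. With estradiol it was 627 bp (611 to 646) against 683 bp (0.918), with the combination 580 bp (558 to 600) against 620 bp (0.935), and with vehicle 516.5 bp (500 to 530) against 570 bp (0.906). The lowest ratio was that with dexamethasone, and its interval (0.829 to 0.895) overlaps that of vehicle (0.877 to 0.930). Chromosome 19 had the lowest ratio of the 3 in every H3K27ac list, 0.841 with dexamethasone, 0.894 with estradiol, 0.914 with the combination and 0.881 with vehicle. Peaks wider than 2000 bp made up 2.95% with dexamethasone, 7.87% with estradiol, 6.04% with the combination and 4.73% with vehicle, against 5.73%, 10.2%, 8.84% and 7.38% on the other autosomes at equal rank.

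Receptor sites were narrow throughout, and their width ratios were nearer to 1 for ER than for GR. ER sites had a median of 198 bp with the combination against 201 bp (ratio 0.985, 0.955 to 1.05), and 149.5 bp with estradiol against 156 bp (0.958, 0.917 to 1.03). GR sites had 142 bp with the combination against 156 bp (0.910, 0.833 to 1.06), and 143 bp with dexamethasone against 158 bp (0.905, 0.861 to 0.994). Of these 4 ratios, the interval of the dexamethasone GR list is the one that lies below 1. Its upper limit is close to 1, the intervals leave out the error of the median elsewhere, and without matching on strength the ratio was 0.960.

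At equal rank, the authors' fold enrichment over the local control was also lower in the dexamethasone list on these chromosomes, with a median of 9.47 (9.22 to 9.71) against 10.1 elsewhere, a ratio of 0.935. It was 11.2 against 11.3 with estradiol, 9.89 against 10.1 with the combination and 9.58 against 9.71 with vehicle. The control background implied by pileup and fold enrichment was 2.58 against 2.40 with dexamethasone, 3.60 against 3.38 with estradiol, 3.45 against 3.09 with the combination and 4.00 against 4.00 with vehicle. A higher control background raises the height at which a peak is called, and its part in the results was not tested.

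ER sites of the estradiol list were found with the combination less often on these chromosomes. Of 346 sites, 175 overlapped a combination ER site (50.6%, 45.2 to 56.0), where 61.8% of the whole list did. The other autosomes at equal rank had 61.4%, a difference of -10.8 points (-16.3 to -5.37). With both ER lists cut to the same number of their strongest sites, the difference was -7.07 points. In the weaker 5 classes, 39 of 175 were found (22.3%, against 36.7%), in the stronger 5, 136 of 171 (79.5%, against 86.7%), and in class 10 all 34. Elsewhere all sites of class 10 were found as well. Chromosome 19 had 59 of 128 found (46.1%), chromosome 16 had 65 of 126 (51.6%) and chromosome 22 had 51 of 92 (55.4%), and their intervals overlap. Chromosomes 19 and 16 were the 2 lowest of the autosomes at equal rank (-13.5 and -9.895 points). Chromosome 10 came next (-8.94 points, -16.2 to -1.70), ahead of chromosome 22 (-8.36 points), whose interval includes 0 (-18.6 to 1.89). In the other direction, 174 of 184 combination ER sites were estradiol sites (94.6%, 90.2 to 97.4), where 91.9% of the whole list were and 93.0% elsewhere at equal rank. The interval of that difference (-1.81 to 5.04 points) includes 0.

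The strongest ER sites of these chromosomes were present with both treatments, as were all class 10 sites of the estradiol ER list on the other autosomes. On chromosome 19, the site from 5893903 to 5894491 had an ER pileup of 98.6 with the combination and 73.6 with estradiol, and the site from 3390016 to 3390293 had 104.5 and 72.4. On chromosome 16, the site from 57656514 to 57656953 had 92.2 and 71.6, and the site from 88990235 to 88990687 had 89.4 and 71.2. On chromosome 22, the site from 45892467 to 45892742 had 90.8 and 69.9, and the site from 37908184 to 37908446 had 80.3 and 68.7.

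All 6 overlapped a GR site with the combination, and 1 of them, chromosome 16 from 57656514, also overlapped GR sites with dexamethasone (highest pileup 28.0). These sites were picked for their pileup. Of all 346 estradiol ER sites on these chromosomes, 48 overlapped a combination GR site (13.9%), against 20.1% elsewhere at equal rank. For dexamethasone GR sites the count was 24 (6.94%), against 10.2%. The H3K27ac peak over chromosome 19 5893903 had a pileup of 40 with dexamethasone, 330 with estradiol, 250 with the combination and 102.9 with vehicle. The H3K27ac peak over chromosome 16 88990235 was absent with dexamethasone and had 265 with estradiol, 155 with the combination and 64.3 with vehicle.

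Dexamethasone GR sites of chromosome 22, 30 in all, were found with the combination less often than sites of equal rank elsewhere. Those of chromosomes 16 and 19 had intervals that include no difference. Over the 3 chromosomes, of the 113 dexamethasone GR sites, 57 were found with the combination (50.4%, 40.9 to 60.0), where 56.8% of the whole list were and 60.6% elsewhere at equal rank, a difference of -10.1 points (-19.6 to -0.673). Of the 101 combination GR sites, 56 were found with dexamethasone (55.4%, 45.2 to 65.3), where 63.1% of the whole list were and 64.9% elsewhere at equal rank. That difference, -9.45 points, has an interval that includes 0 (-19.5 to 0.557). Chromosome 22 had 12 of its 30 dexamethasone GR sites found (40.0%, 22.7 to 59.4), chromosome 19 had 24 of 48 (50.0%) and chromosome 16 had 21 of 35 (60.0%), and these 3 intervals overlap. The interval of the share of chromosome 22 includes the 56.8% of the whole list. At equal rank the differences were -25.0 points on chromosome 22 (-42.6 to -7.34), -7.55 on chromosome 19 (-21.9 to 6.78) and -0.911 on chromosome 16 (-17.3 to 15.5). Chromosomes 20 (-15.95 points, -32.6 to 0.737), 11 (-14.3, -24.3 to -4.21) and 17 (-9.12, -19.9 to 1.65) came next after chromosome 22, ahead of chromosome 19. Without the 30 sites of chromosome 22 the difference over the dexamethasone list was -4.75 points, and without matching on strength it was -6.74 points. For the combination list it was -6.20 points without chromosome 22.

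The strongest GR sites were called with both treatments, as were 98.1% of class 10 sites of the dexamethasone GR list on the other autosomes. On chromosome 22, the site from 46501400 to 46501634 had a GR pileup of 87 with the combination and 137.2 with dexamethasone, and the site from 30686968 to 30687324 had 80 and 121.9. On chromosome 16, the site from 28516349 to 28516618 had 91 and 109.2, and the site from 16242125 to 16242318 had 80 and 85.8. On chromosome 19, the site from 46804195 to 46804436 had 47 and 102.0, and the site from 39900186 to 39900462 had 43 and 79.4.

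Their H3K27ac differed from site to site. The GR site of chromosome 19 at 46804195 lay in an H3K27ac peak of the dexamethasone list only (pileup 30). The GR site of chromosome 16 at 16242125 lay in peaks of dexamethasone (56), estradiol (107) and the combination (76) and in no vehicle peak, and it overlapped ER sites of both lists. The GR site of chromosome 19 at 39900186 lay in peaks of estradiol (90), the combination (84) and vehicle (71.9) and in none with dexamethasone.

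Receptor sites of chromosomes 16, 19 and 22 lay in dexamethasone H3K27ac peaks less often than sites of equal rank elsewhere. The low share of the dexamethasone H3K27ac list on these chromosomes was part of their choice. Of the 184 combination ER sites, 39 overlapped a dexamethasone H3K27ac peak (21.2%, 15.5 to 27.8), where 31.0% of the whole list did and 33.4% elsewhere at equal rank. Of the 346 estradiol ER sites, 75 did (21.7%, 17.5 to 26.4), where 27.5% of the whole list did and 27.8% elsewhere at equal rank. Of the 101 combination GR sites, 22 did (21.8%, 14.2 to 31.1), where 33.7% of the whole list did and 34.6% elsewhere at equal rank. Of the 113 dexamethasone GR sites, 35 did (31.0%, 22.6 to 40.4), where 36.9% of the whole list did and 39.2% elsewhere at equal rank. The difference of the last of these, -8.21 points, has an interval that includes 0 (-17.1 to 0.635).

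In estradiol H3K27ac peaks the shares were higher on chromosomes 16, 19 and 22 in all 4 receptor lists, and the intervals of 2 of the differences lie above 0. Estradiol H3K27ac peaks held 108 of the 184 combination ER sites (58.7%), where they held 53.4% of the whole list and 55.5% elsewhere at equal rank. They held 196 of the 346 estradiol ER sites (56.6%), where they held 50.6% of the whole list and 49.4% elsewhere at equal rank, a difference of 7.24 points (1.76 to 12.7). For the combination GR sites the count was 56 of 101 (55.4%), where 42.9% of the whole list lay in such peaks and 43.5% elsewhere at equal rank, a difference of 12.0 points (1.95 to 22). For the dexamethasone GR sites it was 52 of 113 (46.0%), where 39.7% of the whole list did and 41.0% elsewhere at equal rank. For the combination and vehicle H3K27ac lists, the intervals of all 8 differences include 0.

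**Figure D5:**
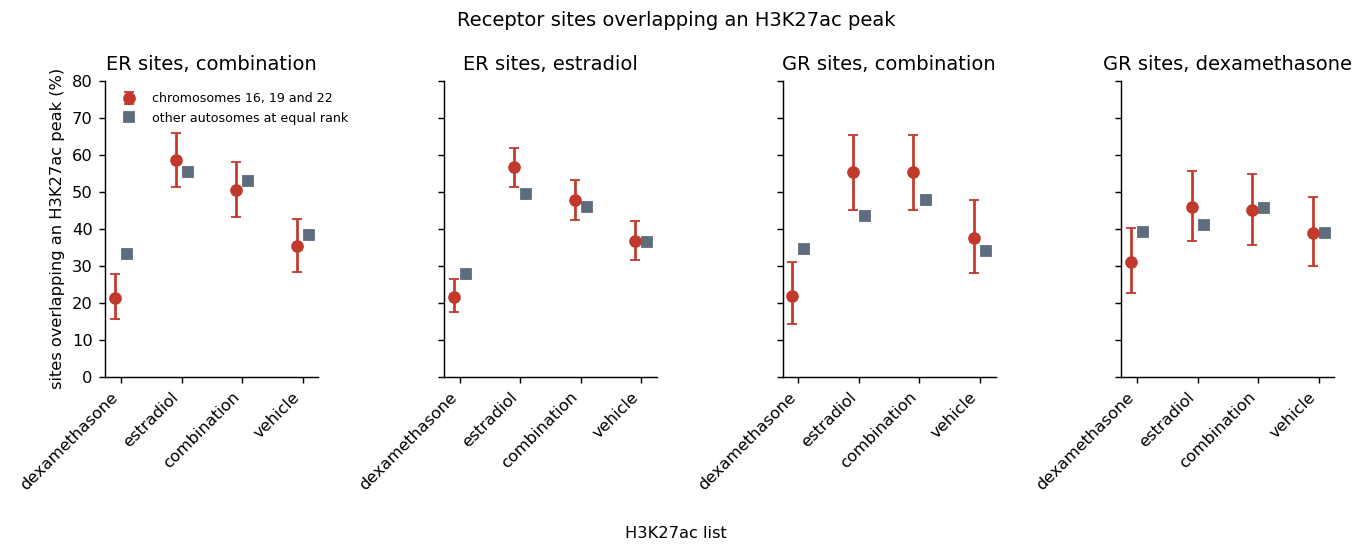
Share of ER and GR sites (y axis, percent) that overlapped a peak of each H3K27ac list (x axis), for sites of chromosomes 16, 19 and 22 (circles, 95% exact intervals) and for the other autosomes at equal rank (squares). In the dexamethasone H3K27ac list the circles lie below the squares in all 4 receptor lists, from 21.2% against 33.4% for combination ER sites to 31.0% against 39.2% for dexamethasone GR sites.

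With both hormones, the share of ER sites that also carried GR was lower here than at equal rank elsewhere, by a difference whose interval nearly reaches 0. Without matching, 32.3% of ER sites elsewhere carried GR, and the interval of the share here includes that value. Of the 184 combination ER sites, 51 overlapped a combination GR site (27.7%, 21.4 to 34.8), where 31.9% of the whole list did and 34.7% elsewhere at equal rank, a difference of -6.98 points (-13.7 to -0.280). Read from the 101 combination GR sites, 52 overlapped a combination ER site (51.5%, 41.3 to 61.6), against 48.2% elsewhere at equal rank, and the interval of that difference (-6.87 to 13.3 points) includes 0. Among the 346 estradiol ER sites, 48 overlapped a combination GR site (13.9%), against 20.1% elsewhere at equal rank and 20.5% without matching. The matched difference was -6.22 points (-10.1 to -2.38). Overlap of these sites with the dexamethasone GR list differed by -3.26 points (-6.13 to -0.38). Every difference read from a GR list to an ER list has an interval that includes 0.

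Across autosomes, the share of vehicle peaks found with dexamethasone ran with the base composition of the chromosome's promoters and with its gene density. The difference from other autosomes at equal rank had a Pearson r of -0.919 and a Spearman rho of -0.939 with median promoter GC over the 21 autosomes that have promoter entries. With genes per Mb they were -0.736 and -0.819 over 22 autosomes. Without chromosomes 16, 19 and 22, r with promoter GC was -0.862 over 18 autosomes. With estradiol the values ran the other way (r 0.677 with promoter GC), and with the combination r was -0.742. These are descriptions: the chromosomes share the same libraries, depth and peak caller, and the promoters come from another genome build than the peaks. Whether GC-dependent recovery of DNA in a library took part was not tested.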

How the data were processed

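The submitters' processing notes name Bowtie 1.1.2, MACS2 2.1.0.20140616 and the hg19 genome. MACS2 called each library against a control with a p cutoff of 1e-10, per the file headers, keeping at most 1 tag per position and taking the local background over 1000 and 10000 bp. The headers also record that the larger library was scaled down. Because the control sample is labelled as input in one field and as IgG in another, what it is remains uncertain. The headers give 14002417 control tags for the H3K27ac lists, 3479280 for the ER lists and 5735043 for the GR lists. The H3K27ac, ER and GR lists were thus not called against the same set of control tags.

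The authors deposited peak positions (1-based, hg19), the summit pileup, which is a signal (fragment coverage after scaling), the −log10 of the p-value and q-value, and the fold enrichment, a ratio of pileup to local control. The control background was recovered from the deposited pileup and fold enrichment as (pileup + 1) / fold − 1. Its lowest value in each H3K27ac list, such as 0.776 with dexamethasone, equalled the genome-wide background computed from the header's tag totals and fragment length. Pileup ranks peaks within a list only, because depth and scaling differ between lists.

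A peak counted as found where another list had a peak sharing at least 1 bp with it. Pileup classes (10 per list) were cut over autosomal peaks. "At equal rank" weights the other autosomes to the class counts of chromosomes 16, 19 and 22, and each single chromosome was set against the autosomes other than itself, 16, 19 and 22. Shares carry exact Clopper-Pearson 95% intervals, differences a normal approximation, and median widths an order-statistic interval. Intervals of width ratios divide that interval by the median elsewhere, whose own error is left out. No p-value was computed, since each group is 1 library. Depth was 5206574 to 18508574 usable tags per library, and precision was set by the number of peaks. The overlap, merging and matching code was tested on simulated data. Alternatives covered other ranking, overlap rules, list lengths, chromosome choices and merging rules. Calculations used Python 3.11.15, numpy 2.4.6, pandas 2.3.3 and scipy 1.17.1.

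The chromosomes, the comparisons and the alternatives were chosen with earlier results of these data known. Regions named in the text follow a rule per chromosome: the 2 strongest vehicle peaks absent with dexamethasone, the strongest region gained with each treatment, the widest region in all 4 lists, and the 2 strongest ER sites (estradiol) and GR sites (dexamethasone). Genes and sequences of the peaks were not analysed here, because no genome or annotation of the files' build was used. RefSeq tables (GRCh38.p14) gave only gene counts and promoter GC per chromosome. Not analysed here were ER with vehicle, GR with vehicle, and the control itself.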

Additional observations from a re-analysis of the deposited data

How the results depend on the processing

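Of 181 alternative values for 29 results, 158 stayed inside the 95% counting interval of the reported value and 23 moved outside it. The ER combination width ratio, 0.985 with an interval that includes 1, crossed 1 in 2 of these alternatives, at 1.01 without matching on strength and 1.015 without chromosome 22. No paired analysis was possible because each group holds 1 library. The difference in vehicle peaks found with dexamethasone ranged from -15.4 to -12.1 points over its 11 alternatives, including matching on rank and neighbour count, which was chosen after seeing the data. With lists of equal length and with only the stronger 50% of peaks, the share on chromosomes 16, 19 and 22 was 13.2% and 13.3% with estradiol, 11.8% and 11.6% with the combination, and 12.8% and 12.8% with vehicle. The difference in vehicle peaks found with estradiol was 3.01 points without matching on strength, 1.03 with a gap of up to 1000 bp allowed and 3.14 with lists of equal length. The width ratio was 0.904 with dexamethasone when peaks were ranked by −log10 q, and without matching it was 0.953 with estradiol and 0.932 with vehicle. For regions gained with dexamethasone, chromosomes 16, 19 and 22 minus other autosomes, the main difference was -9.72 points. It was -6.54 with peaks within 1000 bp joined, -6.54 with absence requiring no peak within 1000 bp, -17.1 with lists of equal length and -10.8 without chromosomes 1, 17 and 20. For regions gained with estradiol (main 4.52 points) it was 1.91 with joined peaks and 2.73 with the stricter absence. With lists of equal length, the difference in regions lost was 15.4 points with dexamethasone, -0.188 with estradiol and 6.05 with the combination, and in regions gained with the combination it was -2.15. Leaving the dexamethasone list out of the merging, chosen after seeing the data, gave -7.27 for regions gained with the combination. The cause of these shifts was not tested. The receptor comparisons rest on the fewest peaks: with 113 dexamethasone GR sites on these chromosomes, the interval of the difference ran from -19.6 to -0.673 points.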
